A study of Homo sapiens with 112 samples.

Results

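The transcripts of 10 amino acid transporter genes were followed in VCaP and LAPC4 prostate cancer cells treated with an androgen and with the antiandrogen darolutamide. The genes were chosen by name, with earlier results of these data known. Every one of them was a row of the expression table, which holds 58684 gene symbols. They were SLC1A4, SLC1A5, SLC38A2, SLC3A2, SLC7A5, SLC7A8, SLC7A11, SLC43A1, SLC43A2 and SLC7A1. After the filter on low counts, all 10 were among the 19266 genes tested in VCaP and 9 were among the 18204 genes tested in LAPC4. SLC43A1 had too few reads in LAPC4 to be tested and is described there by its counts.

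Amino acids are charged or polar and cross the plasma membrane only through carrier proteins, most of which belong to the solute carrier (SLC) families. SLC1A4 (ASCT1) and SLC1A5 (ASCT2) exchange small neutral amino acids, and SLC1A5 is a major route for glutamine. SLC38A2 (SNAT2) carries small neutral amino acids together with sodium. SLC3A2 (4F2hc, CD98) is a heavy chain that brings light chains to the cell surface, among them SLC7A5 (LAT1) and SLC7A8 (LAT2) for large neutral amino acids and SLC7A11 (xCT) for the exchange of cystine with glutamate. SLC43A1 (LAT3) and SLC43A2 (LAT4) let branched-chain and aromatic amino acids through without a partner chain, and SLC7A1 (CAT1) takes up arginine and lysine. Prostate cancer cells are known to use these carriers to supply protein synthesis and the kinase mTORC1, which senses amino acids.

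Both cell lines are established lines derived from human prostate cancer. Before treatment they were starved of steroid hormones in charcoal-stripped serum, and were then given the solvent DMSO, 1 nM of the synthetic androgen R1881, or 1 nM R1881 with 0.5 µM or 2 µM darolutamide for 8 h or 22 h. Every group, controls included, went through this hormone starvation. VCaP gave 10 DMSO, 10 R1881, 4 0.5 µM and 5 2 µM libraries at 8 h, and 8, 9, 4 and 5 libraries in the same order at 22 h. LAPC4 gave 10, 10, 5 and 5 libraries at 8 h and 7, 10, 5 and 5 at 22 h. Each cell line is 1 line, so a difference between them is a difference between these lines. The labels do not say whether libraries of a group came from separate cultures, so p-values measure the spread between these libraries. The 112 libraries held 12188455 to 25201678 counted reads. ERG, which the fusion gene of VCaP brings under androgen control, had 1578 to 21554 reads in VCaP and 0 to 1 in LAPC4. Of 6 markers of leukocytes, fibroblasts and endothelium, 5 had 0 to 16 reads in any library and COL1A1 had 4 to 40. In such bulk samples, fewer cells that use a gene and less RNA per cell cannot be told apart.

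The starts of the genes are shown because several members carry the letters TGATGNAA near a transcription start. This is the core of the C/EBP-ATF response element, a sequence through which ATF4 is known to act on genes of amino acid supply. The RefSeq promoter table (GRCh38.p14) gave windows from 250 bases before to 50 bases after a start for 9 of the 10 members, SLC7A11 being the one without an entry. TGATGNAA was searched on both strands and stood in 3.62% of all 35116 promoter windows of this length. These members had 20 windows, since some have several starts, and 4 of the 20 held the letters, 1 each of SLC1A4, SLC1A5, SLC3A2 and SLC7A1. The other listed starts of SLC1A4, SLC1A5 and SLC3A2 did not hold them. The matched windows of SLC1A4 (start 2), SLC1A5 (start 3) and SLC3A2 (start 1) lay wholly inside the gene bounds given below. That of SLC7A1 spanned the upstream end of its gene. The 4 windows are printed 5′ to 3′ on the strand of the gene with the matched letters in capitals. A match is a description of the letters only.
SLC1A4, start 2, chr2:64989149-64989448, plus strand: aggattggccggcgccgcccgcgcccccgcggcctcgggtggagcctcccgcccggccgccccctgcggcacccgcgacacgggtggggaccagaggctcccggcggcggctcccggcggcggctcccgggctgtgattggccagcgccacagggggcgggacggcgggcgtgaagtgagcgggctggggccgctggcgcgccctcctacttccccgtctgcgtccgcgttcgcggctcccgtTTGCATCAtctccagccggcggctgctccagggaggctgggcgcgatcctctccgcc
SLC1A5, start 3, chr19:46784765-46785064, minus strand: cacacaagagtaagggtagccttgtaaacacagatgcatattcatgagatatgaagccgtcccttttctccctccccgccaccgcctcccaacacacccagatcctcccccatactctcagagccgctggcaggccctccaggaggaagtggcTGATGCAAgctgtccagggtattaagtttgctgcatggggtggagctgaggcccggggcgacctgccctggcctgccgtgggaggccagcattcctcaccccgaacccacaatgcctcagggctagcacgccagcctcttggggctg
SLC3A2, start 1, chr11:62881449-62881748, plus strand: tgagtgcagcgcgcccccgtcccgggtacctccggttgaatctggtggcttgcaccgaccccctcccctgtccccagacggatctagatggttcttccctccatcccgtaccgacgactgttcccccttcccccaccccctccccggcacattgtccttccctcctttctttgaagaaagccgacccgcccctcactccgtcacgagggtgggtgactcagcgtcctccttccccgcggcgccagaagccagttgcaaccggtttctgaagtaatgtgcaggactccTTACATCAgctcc
SLC7A1, start 1, chr13:29595639-29595938, minus strand: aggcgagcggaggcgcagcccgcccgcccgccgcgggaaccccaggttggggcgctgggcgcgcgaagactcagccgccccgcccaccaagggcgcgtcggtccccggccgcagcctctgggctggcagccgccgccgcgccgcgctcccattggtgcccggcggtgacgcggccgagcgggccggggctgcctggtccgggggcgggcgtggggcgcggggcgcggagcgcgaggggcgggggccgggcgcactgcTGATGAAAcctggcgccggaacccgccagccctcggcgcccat
The genes themselves lie, in GENCODE 44 on GRCh38, at chr2:64988477-65023865 (SLC1A4), chr19:46774883-46788594 (SLC1A5), chr11:62856004-62888880 (SLC3A2) and chr13:29509414-29595688 (SLC7A1).

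Levels of different genes were compared as RPKM, library-scaled reads divided by exon length, in DMSO at 22 h. In VCaP, SLC1A5 was the most abundant member at 45.8 ± 5.54 RPKM (SD, n = 8). SLC38A2 followed at 30.6 ± 1.96, SLC7A1 at 14.3 ± 0.944 and SLC43A1 at 5.03 ± 0.219 RPKM, with no overlap between neighbours. Below them, the ranges of SLC1A4, SLC7A8 and SLC43A2 overlapped, with means of 2.30, 2.02 and 1.69 RPKM. SLC7A5, the large neutral amino acid carrier LAT1, was the lowest at 0.0310 RPKM. With the longest transcript in place of all exons as the length, SLC3A2 (8.53 RPKM) stood above SLC43A1 (7.05 RPKM) in VCaP, whereas over all exons it stood below at 3.79 RPKM.

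The order was another in LAPC4. SLC38A2 led at 90.3 ± 5.16 RPKM (SD, n = 7), ahead of SLC1A5 at 55.4 ± 5.23, SLC7A8 at 38.6 ± 1.76 and SLC3A2 at 24.2 ± 1.39 RPKM, again without overlap between neighbours. With the longest transcript as the length, SLC7A8 and SLC3A2 were level at 54.5 and 54.4 RPKM. SLC7A5 was present at 4.93 ± 0.756 RPKM and overlapped SLC7A11 (3.38 RPKM). SLC7A1 and SLC43A2 overlapped at 1.84 and 1.64 RPKM. SLC43A1, the fourth member in VCaP, was the lowest here at 0.0577 RPKM.

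Of the large neutral amino acid carriers, 3 stood apart by line in their raw counts. SLC7A5 had 0 to 14 reads in any VCaP library and 291 to 964 reads in any LAPC4 library. SLC43A1 had 237 to 977 reads in VCaP and 0 to 8 reads in LAPC4. SLC7A8 had 41 to 269 reads in VCaP and 2326 to 5259 in LAPC4. The ranges of these 3 genes did not overlap between the lines over all treatments and times. Nor did those of SLC3A2, SLC38A2, SLC7A1 and SLC7A11, so the separation is not particular to the 3. The share of all genes with such a separation was not counted. Levels were normalised within each line and were not tested between lines.

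**Figure D1:**
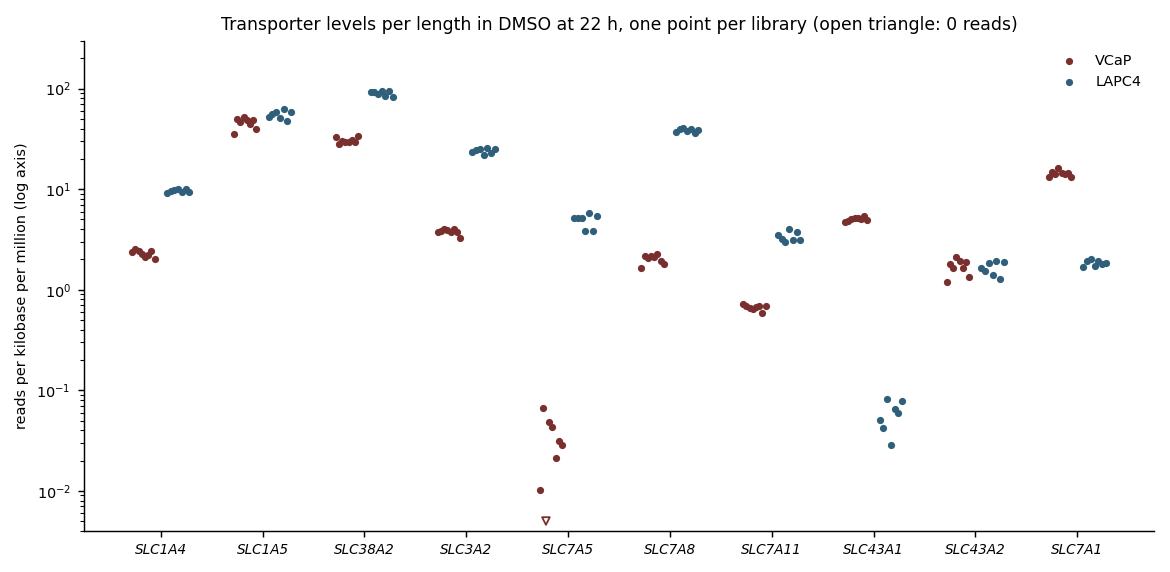
Levels per length of the 10 transporters in DMSO at 22 h, in RPKM on a log axis, with 1 point per library (8 VCaP, 7 LAPC4). SLC7A5 lies far below the other members in VCaP (mean 0.0310) and SLC43A1 far below them in LAPC4 (mean 0.0577), and an open triangle marks a library with 0 reads.

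The first comparison asked what the androgen did to these transcripts. In VCaP at 22 h, 9 of 10 members passed the test between R1881 and DMSO, 6 higher and 3 lower. R1881 raised 37.4% of all genes tested in VCaP at 22 h and lowered 40%, beside which the count of members is to be read. The median log2 fold change of the members was 0.21, against -0.03 for all genes, and the median absolute change was 0.84 against 0.53. At 8 h, 8 members passed, 5 higher and 3 lower, where 32.8% of all genes rose and 34.1% fell.

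SLC1A4 changed most at 22 h. Its level then was 14.1, 16.1 and 17.5 CPM (counts scaled to library size; lowest, median and highest library) in DMSO and 63.2, 69.6 and 74.0 CPM in R1881. Every R1881 library lay far above every DMSO library, and the log2 fold change was 2.13 (SE 0.0448, adjusted p = 2.18e-43, from edgeR's quasi-likelihood fit, with Benjamini-Hochberg correction over all genes tested, as for all adjusted p-values here). At 8 h the levels were 15.9, 18.7 and 18.9 CPM in DMSO and 37.4, 42.2 and 46.9 CPM in R1881, a log2 fold change of 1.22 (SE 0.0401). The rise was larger at 22 h than at 8 h by 0.91 on the log2 scale (SE 0.0593, adjusted p = 8.24e-20).

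The glutamine carrier SLC1A5 rose with it. It went from 119.1, 158.1 and 174.6 CPM in DMSO to 291.8, 360.2 and 422.6 CPM in R1881 at 22 h, a log2 fold change of 1.25 (SE 0.0700, adjusted p = 3.11e-23) with no overlap between the groups. At 8 h the change was smaller, at 0.41 (SE 0.0640), and the 2 groups again did not overlap. The difference between the times was 0.84 (SE 0.0941, adjusted p = 2.45e-11). SLC38A2, the sodium-coupled carrier, moved little: its log2 fold change was 0.16 at 8 h and 0.18 at 22 h (SE 0.0415 and 0.0449), the groups overlapped at both times, and without TMM factors, the scaling between libraries, the values were 0.02 and 0.07 and no longer passed (adjusted p = 0.634 and 0.132).

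The heavy chain SLC3A2 rose slightly, from 20.9, 24.4 and 25.5 CPM in DMSO to 26.3, 29.1 and 30.8 CPM in R1881 at 22 h. These groups did not overlap, and the log2 fold change was 0.25 (SE 0.0479, adjusted p = 7.79e-06). At 8 h the groups overlapped and the change was 0.14 (SE 0.0438, adjusted p = 0.00441), which turned to -0.00276 without TMM factors (adjusted p = 0.959). With control replicates 6 and above alone it was 0.06 and did not pass (adjusted p = 0.492). Of its light chains, SLC7A5 had too few reads in VCaP to read a change from, with log2 fold changes of 0.38 at 8 h and 0.08 at 22 h and SEs of 0.328 and 0.511.

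The light chain SLC7A8 fell by 1.42 on the log2 scale at 22 h (SE 0.0807, adjusted p = 5.08e-23). Its level was 9.96, 12.5 and 13.6 CPM in DMSO and 3.66, 4.38 and 5.50 CPM in R1881, so the highest R1881 library lay below the lowest DMSO library. The fall was of like size at 8 h, at -1.37 (SE 0.0783), from 6.51, 8.54 and 9.05 to 2.29, 3.30 and 3.81 CPM. The difference between the times was -0.06 (SE 0.114) and did not pass the test. SLC7A11, the cystine carrier, did not pass at 8 h (0.11, SE 0.0729, adjusted p = 0.171). At 22 h it fell by 0.61 (SE 0.0889, adjusted p = 1.71e-08), from 5.67, 6.57 and 7.03 CPM to 3.23, 4.15 and 6.18 CPM. One R1881 library, at 6.18 CPM, reached into the DMSO range, and the time difference of -0.72 (SE 0.115) passed.

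The facilitators SLC43A1 and SLC43A2 both rose at 22 h. SLC43A1 went from 16.5, 17.9 and 18.9 CPM to 40.2, 43.0 and 47.5 CPM, a log2 fold change of 1.30 (SE 0.0550, adjusted p = 9.27e-29), after 0.50 (SE 0.0505) at 8 h. The groups did not overlap at either time. SLC43A2 was lower with R1881 at 8 h (-0.35, SE 0.113, adjusted p = 0.00574) and higher at 22 h (1.07, SE 0.124, adjusted p = 3.15e-11). At 22 h it went from 12.7, 18.2 and 22.3 CPM to 24.4, 37.0 and 48.2 CPM with no overlap. At 8 h it went from 16.5, 24.1 and 33.5 CPM to 13.1, 18.4 and 23.4 CPM with overlap, and with control replicates 1 to 5 alone that fall no longer passed (-0.24, adjusted p = 0.175). The time difference of 1.41 (SE 0.167, adjusted p = 1.31e-10) was the largest among the members.

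SLC7A1, the arginine and lysine carrier, fell by 0.11 at both times (SE 0.0352 and 0.0385), with overlapping groups. The call was lost with control replicates 1 to 5 alone at 8 h (adjusted p = 0.107) and with replicates 6 and above alone at 22 h (adjusted p = 0.181). Its levels at 22 h were 101.8, 109.2 and 125.2 CPM in DMSO and 99.3, 100.9 and 107.6 CPM in R1881. Of the 10 members, 5 had a time difference that passed in VCaP, SLC1A4, SLC1A5, SLC43A1 and SLC43A2 upward and SLC7A11 downward, where 60.4% of all genes tested did.

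**Figure D2:**
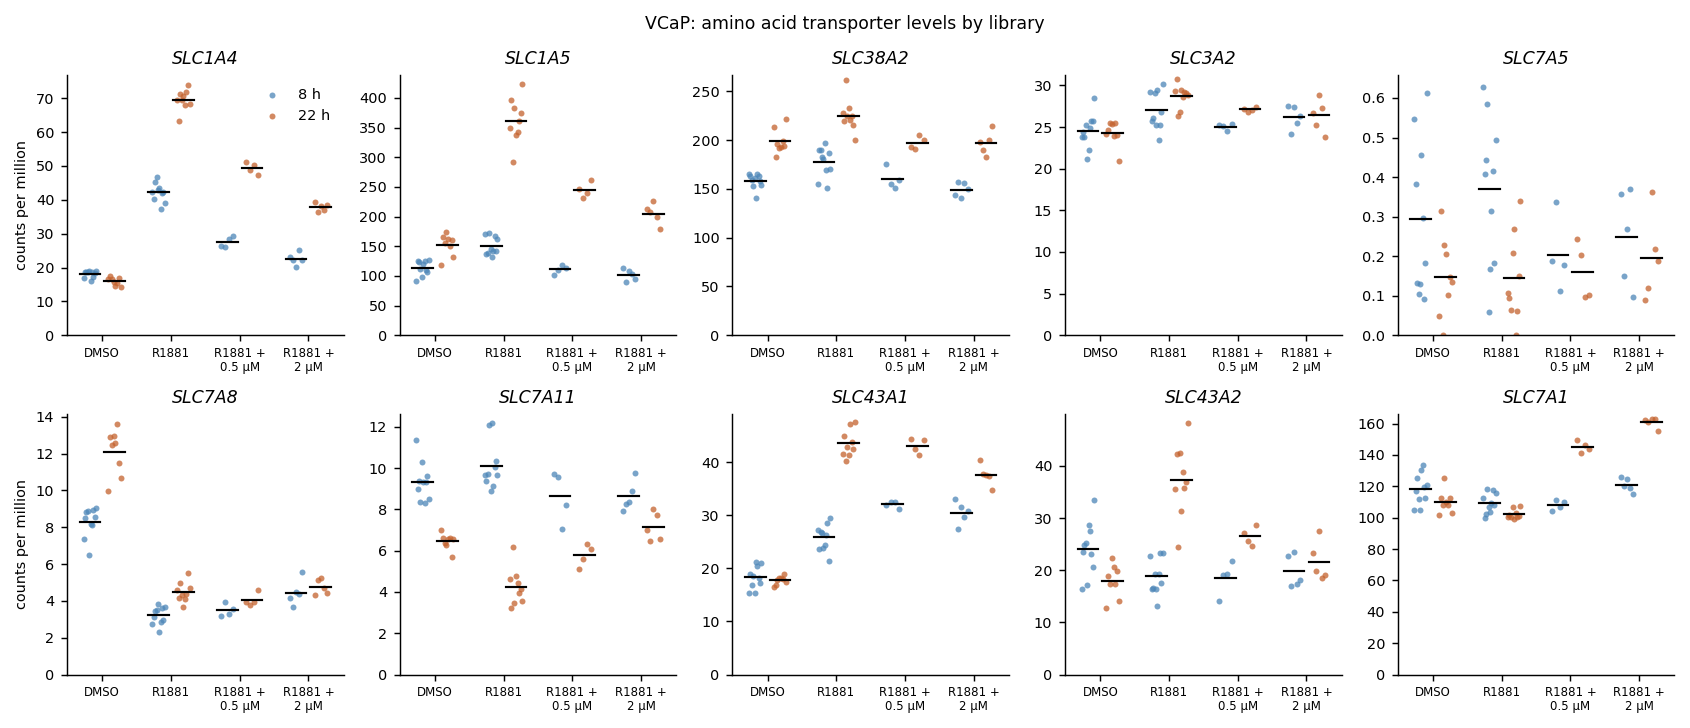
CPM of each transporter in every VCaP library, by treatment, at 8 h (blue) and 22 h (orange), with a black line at the group mean and a separate linear axis per gene. SLC1A4 rose with R1881 to 69.6 CPM at 22 h and stood between DMSO and R1881 with darolutamide, and SLC7A8 stayed low with darolutamide. SLC7A1 was highest with 2 µM darolutamide at 22 h, whereas at 8 h its libraries with that dose lay within the DMSO range.

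LAPC4 showed fewer and smaller changes. At 22 h, 5 of the 9 members tested passed between R1881 and DMSO, 3 higher and 2 lower, while 6.83% of all genes rose and 6.45% fell. The median absolute log2 fold change was 0.18 for the members and 0.09 for all genes. At 8 h SLC7A1 alone passed, where 1.75% of genes rose and 0.895% fell, and 2 members had an unadjusted p under 0.05.

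SLC7A1 was the member that moved most in LAPC4. At 22 h it went from 12.95, 14.1 and 15.4 CPM in DMSO to 19.99, 22.9 and 25.2 CPM in R1881, a log2 fold change of 0.69 (SE 0.0516, adjusted p = 2.41e-16). The groups did not overlap. At 8 h it went from 14.0, 15.9 and 16.8 CPM to 17.3, 18.9 and 20.3 CPM, also without overlap, a change of 0.26 (SE 0.0464, adjusted p = 9.11e-05). With control replicates 6 and above alone, the 8 h change of 0.22 no longer passed (adjusted p = 0.175). The rise was larger at 22 h by 0.43 (SE 0.0691, adjusted p = 1.70e-05).

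SLC1A4 rose by 0.18 at 22 h (SE 0.0260, adjusted p = 4.15e-07), from 64.4, 67.3 and 69.8 CPM to 72.5, 75.9 and 78.5 CPM. These groups did not overlap, although the change was small. SLC43A2 rose by 0.48 (SE 0.137, adjusted p = 0.0107) with overlapping groups, from 13.5, 17.5 and 20.5 CPM to 17.5, 24.2 and 33.0 CPM. It no longer passed with control replicates 1 to 5 (0.38) or 6 and above (0.62) alone (adjusted p = 0.244 in both). The latter subset held only replicates 6 and 7 of DMSO. SLC7A8 fell by 0.19 (SE 0.0313, adjusted p = 6.20e-06), from 215.8, 232.0 and 244.3 CPM to 192.7, 202.1 and 215.9 CPM, with ranges that just touched. With control replicates 6 and above alone it no longer passed (-0.14, adjusted p = 0.255). SLC38A2 fell by 0.15 (SE 0.0376, adjusted p = 0.00339) and lost the call with either subset of control replicates (-0.12 and -0.16, adjusted p = 0.0867 and 0.191).

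SLC7A5 had a log2 fold change of 0.38 at 22 h in LAPC4 (SE 0.135) and an adjusted p of 0.0504. Its levels were 18.4, 24.7 and 27.8 CPM in DMSO and 24.3, 29.7 and 39.0 CPM in R1881, and the ranges overlapped. With DESeq2 the adjusted p was 0.0332. SLC1A5, SLC3A2 and SLC7A11 had log2 fold changes of 0.16, -0.02 and 0.02 and did not pass (adjusted p = 0.158, 0.889 and 0.919). SLC43A1 had 2 to 6 reads per library in DMSO and 2 to 6 in R1881 at 22 h. SLC1A4 and SLC7A1 were the members whose response differed between the times in LAPC4, where 3.21% of all genes did, and the difference for SLC1A4 (0.14, SE 0.0350, adjusted p = 0.00828) was lost with either subset of control replicates.

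**Figure D3:**
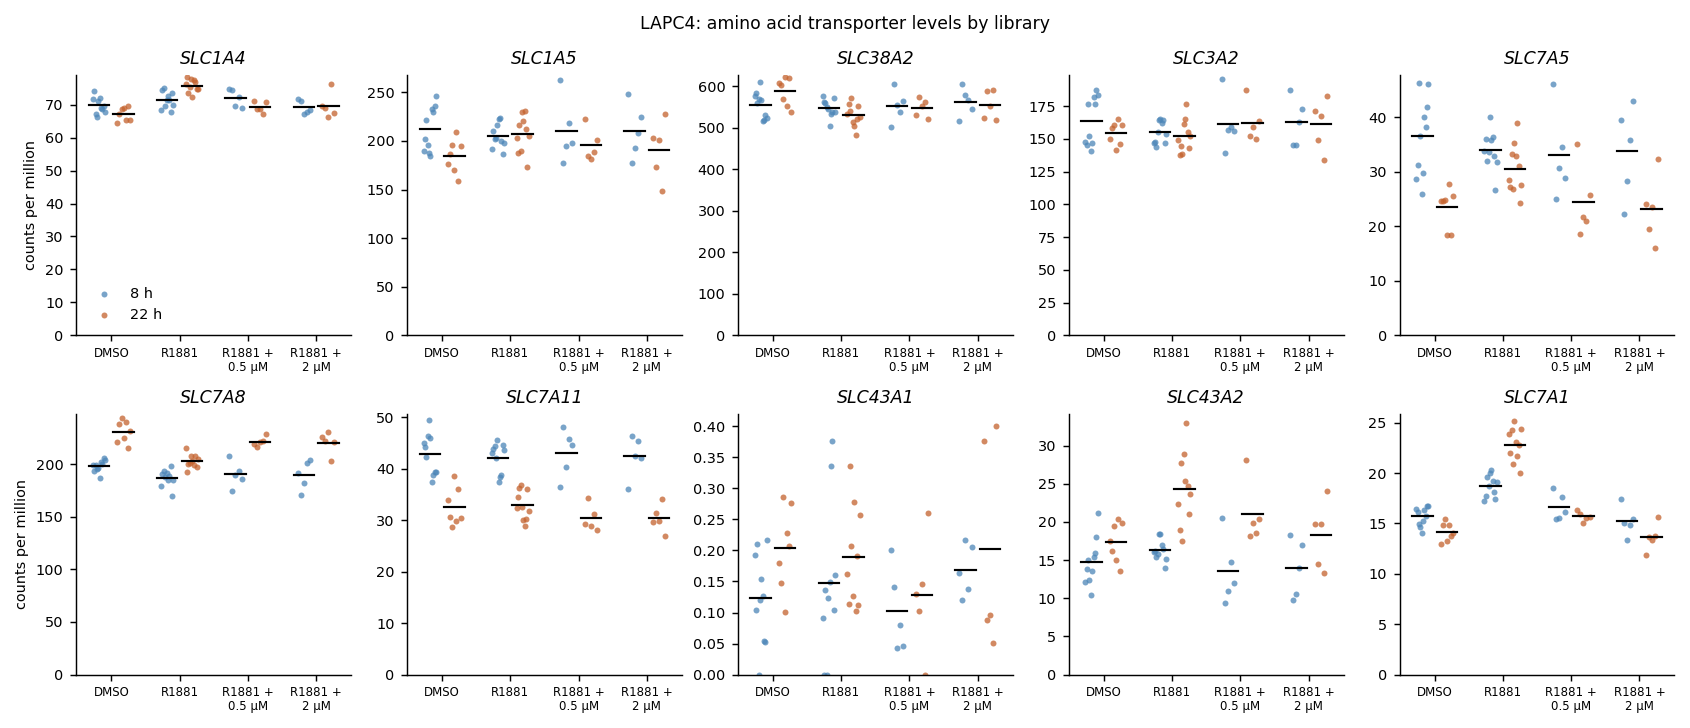
CPM of each transporter in every LAPC4 library, by treatment, at 8 h (blue) and 22 h (orange), with a black line at the group mean and a separate linear axis per gene. SLC7A1 with R1881 at 22 h (19.99 to 25.2 CPM) stands above the DMSO and darolutamide groups and overlaps only R1881 at 8 h (up to 20.3 CPM), and SLC43A1 stays at or below 0.400 CPM throughout.

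The responses of the 2 lines were compared by the interaction of cell line and treatment over the 16578 genes tested in both. At 22 h, 8 of 9 members differed, where 68.5% of all genes did, and at 8 h 5 of 9, where 58.5% did. The largest difference was that of SLC1A4, whose response was higher in VCaP by 1.89 on the log2 scale at 22 h (SE 0.0518, adjusted p = 4.01e-58). SLC7A8 fell more in VCaP, by a difference of -1.29 (SE 0.0725). For SLC7A1 the lines went in opposite directions at 22 h, -0.11 in VCaP and 0.69 in LAPC4, with a difference of -0.85 (SE 0.0580, adjusted p = 8.00e-26). The small VCaP fall did not pass with control replicates 6 and above alone (adjusted p = 0.181). SLC38A2 also went in opposite directions, 0.18 in VCaP and -0.15 in LAPC4, with a difference of 0.27 (SE 0.0658, adjusted p = 0.000218), which did not pass with control replicates 6 and above alone (adjusted p = 0.186). Its VCaP rise did not pass without TMM factors (adjusted p = 0.132) or with those replicates alone (adjusted p = 0.48). Its LAPC4 fall did not pass with either subset of control replicates (adjusted p = 0.0867 and 0.191).

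**Figure D4:**
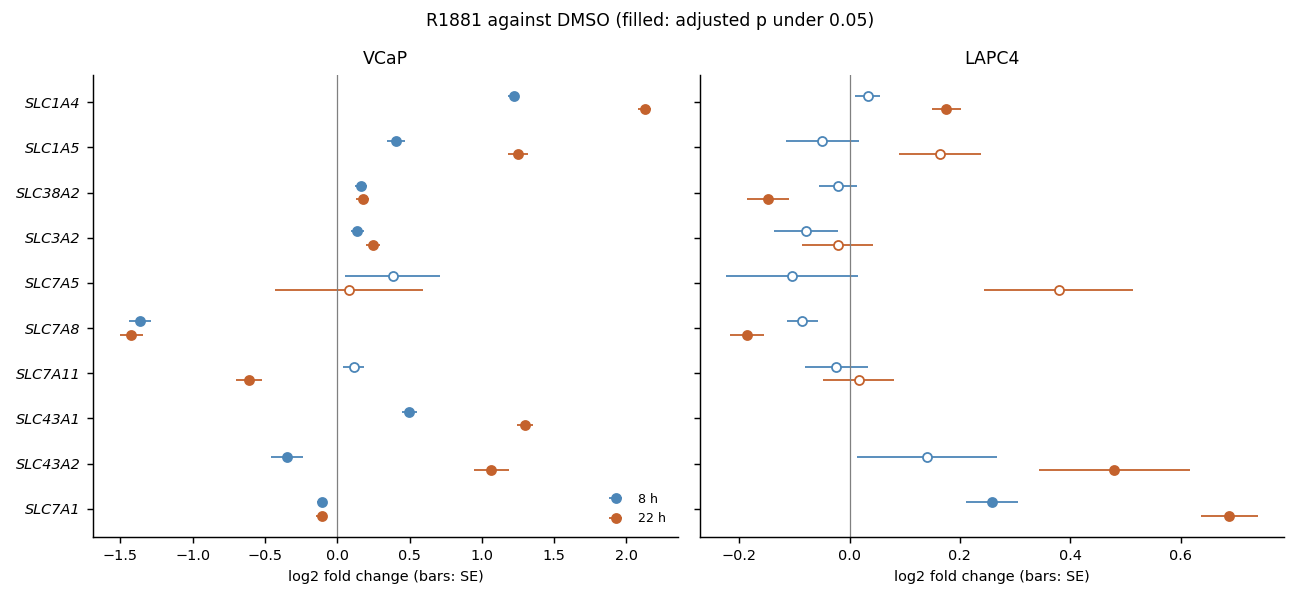
Log2 fold change of R1881 against DMSO with its SE (bars) at 8 h (blue) and 22 h (orange), VCaP left and LAPC4 right, on separate horizontal scales; filled points passed an adjusted p of 0.05. SLC1A4 reached 2.13 in VCaP and 0.18 in LAPC4 at 22 h, SLC43A2 changed sign between the times in VCaP, and SLC7A1 lay below 0 in VCaP and above 0 in LAPC4.

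The next comparison asked how darolutamide changed the transcripts in the presence of R1881. These comparisons share the R1881 libraries with those above. In VCaP at 22 h, 8 of 10 members passed at 2 µM, 2 higher and 6 lower, where 36.1% of genes rose and 30.8% fell. At 0.5 µM, 6 passed, 2 higher and 4 lower, where 26.7% rose and 26.4% fell. At 8 h, 7 passed at 2 µM (3 higher, 4 lower; 25.9% and 26.2% of genes) and 4 at 0.5 µM (1 higher, 3 lower; 14.9% and 15.7%).

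SLC1A4 and SLC1A5 were lowered in VCaP without returning to the DMSO level at 22 h. SLC1A4 measured 47.4, 48.8, 50.4 and 51.2 CPM in the 4 libraries with 0.5 µM and 36.4, 37.1, 38.2, 38.5 and 39.3 CPM in the 5 with 2 µM. All of these lay below the R1881 libraries (63.2 CPM and more) and above the DMSO libraries (17.5 CPM and less). The log2 fold change against R1881 was -0.49 (SE 0.0516) at 0.5 µM and -0.88 (SE 0.0485, adjusted p = 3.59e-23) at 2 µM.

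SLC1A5 measured 230.9, 240.3, 247.1 and 261.3 CPM with 0.5 µM and 178.8, 199.6, 206.9, 213.4 and 226.9 CPM with 2 µM at 22 h. It too lay between the R1881 and the DMSO libraries in every case, with log2 fold changes of -0.56 (SE 0.0864) and -0.82 (SE 0.0806) against R1881. Against DMSO, the cells with R1881 and 2 µM darolutamide remained higher by 1.25 for SLC1A4 (SE 0.0501, adjusted p = 6.34e-29) and by 0.43 for SLC1A5 (SE 0.0799, adjusted p = 6.55e-06). At 8 h SLC1A4 was still 0.32 above DMSO (SE 0.0494, adjusted p = 4.80e-07), whereas SLC1A5 had a log2 fold change of -0.16 (SE 0.0792, adjusted p = 0.136).

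SLC43A2 went from 37.3 ± 6.88 CPM (SD, n = 9) with R1881 to 24.7, 25.6, 27.1 and 28.7 CPM with 0.5 µM and to 18.5, 19.1, 19.9, 23.2 and 27.6 CPM with 2 µM at 22 h. Both falls passed, at -0.49 (SE 0.150) and -0.79 (SE 0.141, adjusted p = 2.10e-06), with overlap of the ranges through the lowest R1881 library at 24.4 CPM. SLC38A2 fell by 0.19 at both doses (SE 0.0559 and 0.0517), and without TMM factors neither value passed (adjusted p = 0.121 and 0.0529). SLC3A2 passed at 2 µM (-0.12, SE 0.0543, adjusted p = 0.0435) and lost the call when any 1 of 4 of the 5 libraries (replicates 1, 2, 4 and 5) was left out, with adjusted p-values from 0.0513 to 0.196.

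For 2 members darolutamide did not bring the R1881 change back. SLC7A8 at 22 h measured 3.75, 3.92, 3.93 and 4.62 CPM with 0.5 µM and 4.32, 4.405, 4.70, 5.14 and 5.24 CPM with 2 µM. These values lay within the range of the R1881 libraries (3.66 to 5.50 CPM) and below every DMSO library. The log2 fold change against R1881 was -0.15 (SE 0.109, adjusted p = 0.256) at 0.5 µM and 0.08 (SE 0.0971, adjusted p = 0.452) at 2 µM. Against DMSO it remained at -1.34 with 2 µM (SE 0.0954, adjusted p = 3.50e-18). At 8 h 2 µM raised it by 0.47 over R1881 (SE 0.0984, adjusted p = 5.12e-05), and against DMSO its log2 fold change was -0.90 (SE 0.0941).

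SLC43A1 measured 41.4, 42.4, 44.2 and 44.5 CPM with 0.5 µM at 22 h, inside the R1881 range of 40.2 to 47.5 CPM, and the change of -0.02 (SE 0.0640, adjusted p = 0.864) did not pass. With 2 µM it measured 34.8, 37.3, 37.6, 37.9 and 40.4 CPM, a log2 fold change of -0.21 (SE 0.0598, adjusted p = 0.00156) that did not pass without TMM factors (-0.12, adjusted p = 0.0822), and it stayed 1.09 above DMSO (SE 0.0620, adjusted p = 4.16e-22). At 8 h both doses gave higher levels than R1881 alone. The libraries with 0.5 µM read 31.3, 32.0, 32.5 and 32.6 CPM and those with 2 µM read 27.5, 29.8, 30.7, 31.5 and 33.1 CPM, against 21.3, 26.5 and 29.6 CPM with R1881 and 15.4, 18.4 and 21.2 CPM with DMSO. The rises over R1881 were 0.31 (SE 0.0642, adjusted p = 9.79e-05) and 0.24 (SE 0.0595, adjusted p = 0.000584).

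SLC7A1 and SLC7A11 were higher with darolutamide than with R1881 alone at 22 h in VCaP. SLC7A1 measured 141.4, 143.9, 146.3 and 149.8 CPM with 0.5 µM and 155.3, 160.8, 162.3, 162.7 and 163.0 CPM with 2 µM. Each of these lay above every DMSO library (125.2 CPM and less) as well as every R1881 library (107.6 CPM and less). The log2 fold changes against R1881 were 0.51 (SE 0.0463) and 0.65 (SE 0.0430, adjusted p = 5.75e-20), and the level with 2 µM was 0.55 above DMSO (SE 0.0441, adjusted p = 4.24e-16). At 8 h, 2 µM gave 0.14 over R1881 (SE 0.0428, adjusted p = 0.00369) and 0.04 over DMSO (SE 0.0429, adjusted p = 0.588).

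SLC7A11 measured 5.14, 5.58, 6.09 and 6.32 CPM with 0.5 µM and 6.45, 6.56, 7.02, 7.71 and 8.00 CPM with 2 µM at 22 h. The 2 µM libraries lay above all R1881 libraries, and the rises were 0.45 (SE 0.109) and 0.75 (SE 0.0977, adjusted p = 1.2e-09). Against DMSO the value with 2 µM was 0.14 (SE 0.0968, adjusted p = 0.202). At 8 h the same dose gave -0.23 (SE 0.0900, adjusted p = 0.0292), a call that was lost when replicate 1, 2 or 3 of that dose was left out (adjusted p = 0.0852, 0.0666 and 0.0642). SLC7A5 did not pass in any VCaP comparison.

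The 2 doses were set against each other directly in VCaP. At 22 h, 4 members differed between 2 µM and 0.5 µM, where 20.2% of genes did. SLC1A4 was lower by a log2 fold change of -0.38 at the higher dose (SE 0.0568, adjusted p = 3.80e-07). SLC1A5 (-0.26, adjusted p = 0.0449), SLC43A1 (-0.20, adjusted p = 0.0402) and SLC7A1 (0.15, adjusted p = 0.0384) also passed, and each lost the call when single libraries were left out, after which 1 to 3 members were called. The adjusted p-values without 1 library reached 0.178 for SLC1A5, 0.152 for SLC43A1 (both without 2 µM replicate 5) and 0.165 for SLC7A1 (without 0.5 µM replicate 4). At 8 h, 3 members passed, SLC1A4 (-0.28, SE 0.0598, adjusted p = 0.000232), SLC7A1 (0.16, adjusted p = 0.0214) and SLC7A8 (0.35, adjusted p = 0.0386), where 17.6% of genes did. The count fell to 1 without 0.5 µM replicate 1 or 3 or without 2 µM replicate 3. SLC7A11 did not overlap between the doses at 22 h (0.30, SE 0.116) and missed the threshold (adjusted p = 0.0539), which it passed without 0.5 µM replicate 3 or without 2 µM replicate 2 or 5 (adjusted p = 0.0449, 0.0364 and 0.0382).

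Against DMSO, the VCaP cells with R1881 and 2 µM darolutamide differed in 5 members at 22 h, where 59% of all genes did. SLC1A4, SLC43A1, SLC7A1 and SLC1A5 were higher and SLC7A8 was lower. At 8 h, 3 members differed, where 27.5% of all genes did, SLC43A1 (0.74, SE 0.0596) and SLC1A4 higher and SLC7A8 lower.

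In LAPC4 at 22 h, darolutamide lowered SLC7A1 and SLC1A4 and raised SLC7A8 at both doses. At 2 µM, 5% of all genes rose and 5.47% fell, and at 0.5 µM 2.68% rose and 3.21% fell. SLC7A1 measured 15.01, 15.5, 15.6, 15.9 and 16.4 CPM with 0.5 µM and 11.9, 13.4, 13.6, 13.7 and 15.6 CPM with 2 µM. All of them lay below the R1881 libraries (19.99 CPM and more), and the log2 fold changes were -0.54 (SE 0.0577, adjusted p = 1.71e-10) and -0.74 (SE 0.0583, adjusted p = 2.75e-15). The level with 2 µM differed from DMSO by -0.05 (SE 0.0617). In VCaP the same gene was higher with darolutamide, and the difference between the lines in this response was not tested.

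SLC1A4 in LAPC4 changed by -0.13 at 0.5 µM and -0.12 at 2 µM (SE 0.0289 in both, adjusted p = 0.00172 and 0.00222), and SLC7A8 by 0.13 and 0.12 (SE 0.0348 and 0.0347, adjusted p = 0.0155 and 0.0152). The 0.5 µM libraries of both genes lay outside the R1881 range, while at 2 µM the ranges overlapped. SLC7A8 lost the call at 0.5 µM without replicate 5 (adjusted p = 0.0676) and at 2 µM without replicate 1 or 3 (adjusted p = 0.0523 and 0.0797). It also lost it with control replicates 1 to 5 or 6 and above alone, at 0.5 µM (adjusted p = 0.0790 and 0.157) and at 2 µM (adjusted p = 0.0648 and 0.134). SLC7A5 (-0.41, SE 0.151, adjusted p = 0.0779) and SLC43A2 (-0.42, SE 0.154, adjusted p = 0.0750) did not pass at 2 µM, but did when replicate 5 of that dose was left out (adjusted p = 0.0135 and 0.0241).

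At 8 h in LAPC4, 2 µM lowered SLC7A1 (-0.30, SE 0.0572, adjusted p = 0.000392) and no other member passed, where 0.467% of genes rose and 1.08% fell. At 0.5 µM, 0 members passed in edgeR and in DESeq2 and 1 had an unadjusted p under 0.05 in edgeR, where 0.137% of genes rose and 0.489% fell. Between the 2 doses, 0 members passed in edgeR or DESeq2 at 22 h (0.258% of genes did in edgeR, and 1 member had an unadjusted p under 0.05) or at 8 h (0.0275%, 0 members). With R1881 and 2 µM darolutamide against DMSO, 0 members passed in edgeR or DESeq2 at 22 h (0.0165% of genes in edgeR) or at 8 h (0.011%), and 0 had an unadjusted p under 0.05.

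**Figure D5:**
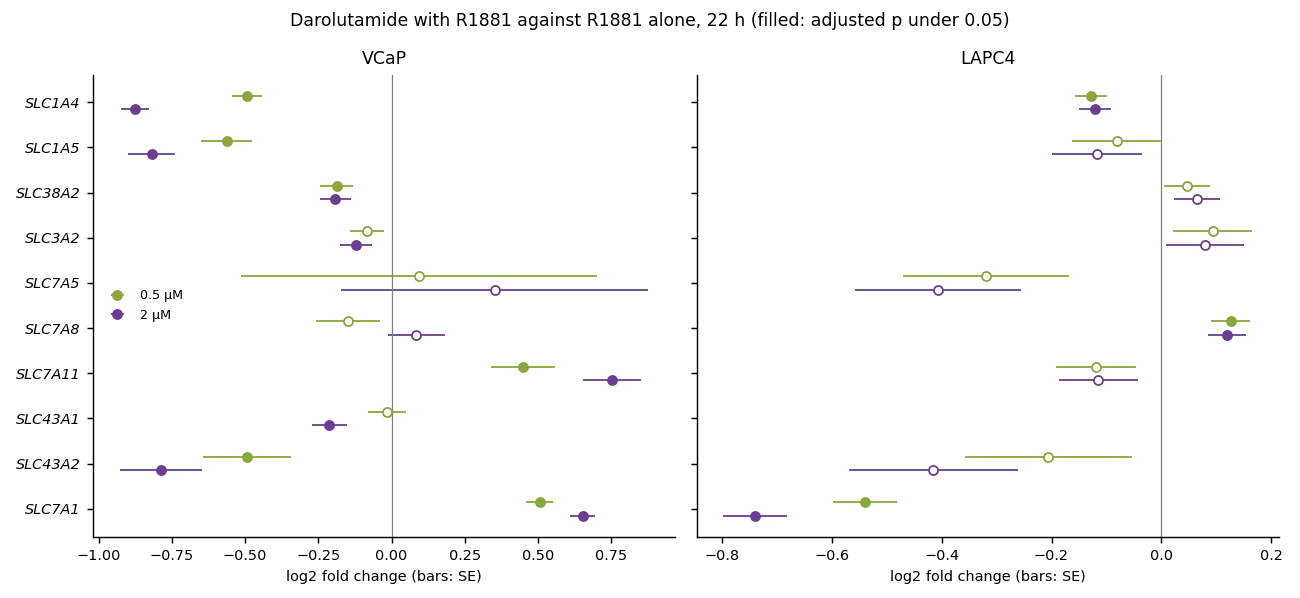
Log2 fold change of R1881 with 0.5 µM (green) or 2 µM (purple) darolutamide against R1881 alone at 22 h, with its SE (bars), VCaP left and LAPC4 right, on separate horizontal scales; filled points passed an adjusted p of 0.05. In VCaP, SLC1A4, SLC1A5 and SLC43A2 lay below 0 and SLC7A11 and SLC7A1 above it, while SLC7A1 lay at -0.74 in LAPC4 with 2 µM.

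Other genes of amino acid supply were described by 5 lists, chosen by function and with earlier results of these data known. Their counts stand beside the 37.4% of all genes that rose and the 40% that fell with R1881 in VCaP at 22 h, and the 6.83% and 6.45% in LAPC4. The lists share some genes, among them SLC36A1, ASNS, SESN2 and CHAC1. Of 25 genes of other carriers, most of them amino acid carriers of the plasma membrane, 15 were tested in VCaP. There R1881 at 22 h raised 5 and lowered 6, with a median log2 fold change of 0.06 against -0.03 for all genes. SLC3A1, the heavy chain of the cystine carrier of kidney and gut, fell from 15.7 ± 1.32 to 0.335 ± 0.0886 CPM (SD, n = 8 and 9; log2 fold change -5.52, SE 0.137) and stood at 4.65 ± 0.515 CPM (n = 5) with 2 µM darolutamide. SLC16A10, a carrier of aromatic amino acids, fell by 1.98 (SE 0.0573). SLC36A1, a proton-coupled carrier that is also found on lysosomes, rose by 1.199 (SE 0.0377). In LAPC4, 3 of 15 rose and 2 fell, and SLC36A1 fell there, by 0.23 (SE 0.0358), while SLC6A6, the taurine carrier, rose by 0.22 (SE 0.0347). SLC38A4 passed in LAPC4 at very low counts, at 0.0463 CPM in DMSO and 0.481 CPM in R1881 (adjusted p = 4.4e-06).

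Of 32 genes of lysosomal transport and amino acid sensing by mTORC1, 31 were tested in VCaP, and 14 rose and 12 fell with R1881 at 22 h (median -0.01). The leucine sensor family members SESN3 and SESN1 fell, with log2 fold changes of -2.53 (SE 0.0572) and -1.97 (SE 0.0452), and the kinase MTOR rose by 1.19 (SE 0.0293). In LAPC4, 1 of 32 rose and 3 fell, SESN1 by 0.42 (SE 0.0422), and MTOR rose by 0.19 (SE 0.0307). Of 22 genes of the amino acid response, 15 rose and 3 fell in VCaP (median 0.37), among them EIF2AK3 (1.46, SE 0.0431), ATF5 (2.16, SE 0.0720) and TRIB3 (1.10, SE 0.0477). EIF2AK3 is a kinase of the endoplasmic reticulum stress response. In LAPC4, 2 of the 22 rose, MTHFD2 (0.16) and STC2 (0.21), and VLDLR fell by 0.13.

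Of 15 tested genes of glutathione and the use of cystine, 10 rose and 4 fell in VCaP (median 0.44), with GSR at 1.28 (SE 0.0335), NFE2L2 at 1.14 (SE 0.0387) and GCLM at 0.91 (SE 0.0509). GCLM is a subunit of the enzyme that makes the first intermediate of glutathione, and SLC7A11, which brings cystine into the cell, had a log2 fold change of -0.61 there. In LAPC4, GCLM (0.24), GSR (0.15) and CHAC2 (0.27) rose and 12 of 15 did not pass. Of 18 tested genes of glutamine, branched-chain and arginine metabolism, 11 rose and 6 fell in VCaP (median 0.16). ODC1, which makes polyamines from ornithine, went from 240.9 ± 7.05 to 2161 ± 88.8 CPM (log2 fold change 3.17, SE 0.0357) and ARG2, an arginase, fell by 1.79 (SE 0.0426), while GOT1, an aspartate aminotransferase, rose by 1.21 (SE 0.0300). In LAPC4 GLUD1 rose by 0.14 and ASS1 fell by 0.37.

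With 2 µM darolutamide against R1881 at 22 h in VCaP, 10 of the 15 other carriers rose and 3 fell (median 0.39, against 0.06 for all genes), where 36.1% of all genes rose and 30.8% fell. The mTORC1 list had 12 higher and 11 lower of 31, the amino acid response list 6 and 11 of 22 (median -0.26), the glutathione list 4 and 7 of 15 (median -0.31) and the list of amino acid use 8 and 6 of 18. SESN3 rose by 2.14 and ARG2 by 1.79, to 184.9 CPM against 185.3 CPM in DMSO. ODC1 fell by 2.30 to 438.1 CPM, and SLC36A1 fell by 0.16 to 51.4 CPM, against 57.5 CPM with R1881 and 25.0 CPM with DMSO. In LAPC4 the same comparison gave 1 higher and 3 lower of 15 other carriers and, in the other 4 lists, 1 to 5 genes called, where 5% of all genes rose and 5.47% fell.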

How the data were processed

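RNA-seq was done on poly(A) RNA of VCaP and LAPC4 cells, as stranded single-end libraries. Per the labels and the study's methods, the authors converted reads with bcl2fastq 2.17, aligned them with STAR to GRCh38 and counted them per gene with featureCounts (Subread), and they analysed the counts with DESeq2. Versions of the others, the gene annotation and the strand setting are not given in the sources used here. The deposited values were raw read counts per gene, 1 column per library, with 12188455 to 25201678 reads in all.

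Here genes reaching 10 reads in 4 or more libraries of a line were tested with edgeR 4.0.16 (R 4.3.3; glmQLFit and glmQLFTest with TMM factors), all 8 groups of a line in 1 fit and all 16 groups for the comparison of lines. P-values were adjusted by Benjamini-Hochberg over all genes tested, with a threshold of 0.05. The SE of a log2 fold change was taken as its absolute value over the root of F. CPM used TMM-scaled library sizes, and RPKM divided CPM by the exon length in GENCODE 44. The methods name 5 biological replicates, whereas groups here held 4 to 10 libraries. No 2 libraries of a group agreed within counting noise. No replicate block was used.

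Alternatives were DESeq2 1.42.0, library totals in place of TMM, other filters, subsets of control replicates, the compared groups alone, a replicate block, the first principal component as covariate, and leaving out each darolutamide library. The script was tested on simulated data. All 10 members are named, and from each list of other genes the 3 with the smallest adjusted p for R1881 at 22 h in each line, apart from a result not reported here. The members and lists were chosen with earlier results of these data known.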

Additional observations from a re-analysis of the deposited data

Results flagged for a closer look

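Of 160 combinations of a member and a group, 5 held a library far from the others, where chance gives about 1 in 20 groups. SLC3A2 was at 20.9 CPM in VCaP DMSO replicate 8 at 22 h, with the next library at 23.9 CPM. SLC7A1 was at 125.2 CPM in VCaP DMSO replicate 4 at 22 h (next 112.8 CPM) and at 155.3 CPM in VCaP 2 µM darolutamide replicate 5 at 22 h (next 160.8 CPM). SLC38A2 was at 140.4 CPM in VCaP DMSO replicate 6 at 8 h (next 153.3 CPM). SLC43A2 was at 28.1 CPM in LAPC4 0.5 µM darolutamide replicate 1 at 22 h (next 20.4 CPM).

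The response to R1881 differed between the times or the lines, by the interaction term, in 20 cases. From 8 h to 22 h the log2 response in VCaP differed by 0.91 for SLC1A4, 0.84 for SLC1A5, 0.80 for SLC43A1, 1.41 for SLC43A2 and -0.72 for SLC7A11. In LAPC4 it differed by 0.14 for SLC1A4 and 0.43 for SLC7A1. Between VCaP and LAPC4 at 8 h the differences were 1.10 for SLC1A4, 0.37 for SLC1A5, -0.45 for SLC7A1, -1.36 for SLC7A8 and -0.57 for SLC43A2. At 22 h they were 1.89 for SLC1A4, 1.03 for SLC1A5, 0.21 for SLC3A2, -0.85 for SLC7A1, -1.29 for SLC7A8, -0.69 for SLC7A11, 0.27 for SLC38A2 and 0.53 for SLC43A2.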

How the results depend on the processing

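Of 2841 fold changes of members recomputed under an alternative, 2684 stayed on the same side of the threshold, 97 lost the call, 59 gained it and 1 turned its sign. A turn of sign was counted only where the main fit or the alternative passed the threshold. The cause was not tested in any case. The change that turned its sign was SLC3A2 in VCaP at 8 h, whose R1881 response was -0.00276 with library totals. Library totals moved the median of all genes for R1881 in VCaP from -0.03 to -0.18 at 8 h, and the share of calls that were higher from 49.1% to 34%. For 0.5 µM and 2 µM darolutamide against R1881 at 8 h that share went from 48.7% to 69.1% and from 49.8% to 67.1%. With library totals, 5 in place of 8 members were called for 2 µM darolutamide against R1881 in VCaP at 22 h, and 2 in place of 4 between the doses, as also without a filter on low counts.

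The first principal component was taken from the deviations of these same libraries from their group means. It held 48.6% of their variance in VCaP and 59.7% in LAPC4. As a covariate it takes up spread between libraries by construction, and 33 calls of members were gained with it and 0 lost. With this component as covariate, VCaP at 8 h had 5 in place of 3 members called between the doses and 6 in place of 3 for 2 µM darolutamide with R1881 against DMSO. In LAPC4 at 8 h it gave 4 in place of 1 for R1881, 2 in place of 0 for 0.5 µM and 2 in place of 1 for 2 µM. In LAPC4 at 22 h it gave 7 in place of 3 for 0.5 µM, 8 in place of 3 for 2 µM and 1 in place of 0 between the doses, and for the time difference 7 in place of 2. Control replicates 6 and above alone gave 5 in place of 3 for 2 µM darolutamide with R1881 against DMSO in VCaP at 8 h, 0 in place of 1 and 2 in place of 5 for R1881 in LAPC4 at 8 h and 22 h, 1 in place of 2 for the time difference in LAPC4, and 5 in place of 8 between the lines at 22 h. Control replicates 1 to 5 alone gave 3 in place of 5 for R1881 in LAPC4 at 22 h and 1 in place of 2 for its time difference, as did no filter on low counts.

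The labels do not say that a replicate number marks a shared culture or day. The deviations of same-numbered libraries had a mean r of -0.0122 in VCaP (55 of 149 pairs over 0.1) and 0.106 in LAPC4 (79 of 161), against 0.00155 and -0.0138 for different numbers. Because not every pair was over 0.1, the numbers were not taken as pairs. That rule cannot decide whether they are pairs, since single pairs ranged widely, from -0.838 to 0.848 in LAPC4. The block fits used the compared groups alone and only the replicate numbers found in all of them, so they held fewer libraries than the main fit. The effect of the block by itself was not tested. With the replicate number as a block, LAPC4 had 0 in place of 1 member called for 2 µM darolutamide at 8 h, 7 in place of 3 at 22 h and 1 in place of 2 for the time difference. Under the block SLC7A1 at 8 h with 2 µM was at -0.31 (adjusted p = 0.346), while at 22 h SLC7A5 (0.45, adjusted p = 0.000513) and SLC1A5 (0.20, adjusted p = 0.00615) passed for R1881, and SLC7A5 (-0.41, adjusted p = 0.00144), SLC43A2 (-0.35, adjusted p = 0.00131), SLC7A11 (-0.19, adjusted p = 0.0179) and SLC3A2 (0.13, adjusted p = 0.0276) passed for 2 µM. Over all genes, the block gave 304 in place of 481 calls for R1881 in LAPC4 at 8 h, and control replicates 6 and above gave 863 in place of 2418 at 22 h. Without 1 darolutamide library, 1 to 3 members were called between the doses in VCaP at 8 h and 1 to 3 at 22 h, and 2 to 5 for 2 µM against R1881 in LAPC4 at 22 h, the 5 without replicate 5. SLC7A5 had at most 14 reads per library in VCaP and SLC43A1 at most 8 in LAPC4, so small changes of these genes were not detectable at this depth.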
